A study of Mus musculus with 3 samples.

Results

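Ptprd, Cadm2, Lsamp, Macrod2, Dmd, Gpc5, Rbfox1, Pcdh15 and Tshz2 are 9 mouse genes with very long transcribed regions, out of 21887 protein-coding genes in the annotation used. They were picked because the number of open-chromatin peaks called in them differed widely between the libraries of a single experiment, so the differences in peak number between libraries describe the choice and carry no test. For each gene, all peaks that touched the gene body or the 10000 bp on either side of it were taken, and this region is called its locus. The gene bodies, in mm10 coordinates, are Ptprd at chr4:75941237-78211742, Cadm2 at chr16:66655416-67620917, Lsamp at chr16:39984254-42181679, Macrod2 at chr2:140395303-142392966, Dmd at chrX:82814664-85205050, Gpc5 at chr14:115092201-116525192, Rbfox1 at chr16:5884793-7412480, Pcdh15 at chr10:73096277-74649831 and Tshz2 at chr2:169632509-170072751. Dmd, at 2390 kb, is the longest of the 227 genes of at least 500000 bp (called long genes here), and Ptprd, at 2271 kb, is next. Tshz2, at 440.2 kb, is the only one of the 9 below that length.

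The libraries are ATAC-seq, in which a transposase cuts and tags accessible DNA, from oligodendrocyte progenitor cells, the cells of the brain that give rise to myelin-forming oligodendrocytes. Cells came by immunopanning from the cortices of C57BL/6 pups at postnatal day 4 to 7, and 50000 cells went into each of 3 libraries, 1 per group. The first group is wild type control cells kept as progenitors (its label, DO, was read as day 0) in medium with PDGF-AA at 20 ng/ml, bFGF at 20 ng/ml, NT3 at 1 ng/ml and CNTF at 10 ng/ml. The other groups are wild type control cells and Seh1cKO cells after 1 day of differentiation, for which PDGF-AA, bFGF and NT3 were withdrawn and triiodothyronine (T3), a thyroid hormone, was added at 60 nM while CNTF stayed at 10 ng/ml. Seh1cKO marks a conditional knockout of Seh1, a component of the nuclear pore complex encoded by Seh1l. The Cre driver, the deleted part of the gene and the number and sex of the animals behind each library are not given in the sources used here, and Seh1cKO progenitors were not analysed here.

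Ptprd (a receptor tyrosine phosphatase), Cadm2 (an immunoglobulin-family adhesion protein), Lsamp (a GPI-anchored member of the IgLON adhesion family), Pcdh15 (a protocadherin) and Gpc5 (a glypican, a heparan sulfate proteoglycan held at the membrane by a GPI anchor) act at the cell surface. Dmd encodes dystrophin, which links the actin cytoskeleton to a membrane complex, Macrod2 a macrodomain protein that acts on ADP-ribosylated targets, Rbfox1 an RNA-binding regulator of splicing and Tshz2 a zinc-finger transcription factor. Genes of this length are common among those used in the nervous system, and most of their body is intron, where distal regulatory elements can lie.

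Sequencing gave 23403600 fragments for progenitors, from which 108788 peaks were called, 18260883 fragments and 118441 peaks for control cells at day 1, and 10845533 fragments and 46113 peaks for Seh1cKO cells. A peak's height is its pileup, the number of fragments over its summit, and the lowest pileup called was 9, 8 and 6 fragments in these libraries, which is 0.385, 0.438 and 0.553 FPM (fragments over the summit per 1000000 fragments of the library). A place with no call may therefore be open below that level, and a bulk library cannot tell fewer cells with an open site from less opening per cell. Among 8 progenitor marker genes, 7 had a peak within 1000 bp of an annotated gene end in each library, and the 8 included Olig2 and Sox10. Of 6 myelinating oligodendrocyte genes, 3, 4 and 2 had such a peak in progenitor, control day 1 and Seh1cKO cells. In the same order, such peaks were present at 8, 8 and 5 of 10 neuronal, 5, 5 and 5 of 6 astrocyte, 2, 2 and 2 of 6 microglial and 2, 4 and 2 of 6 endothelial or mural marker genes, and the part of other cell types in the values below was not tested. The locus of Seh1l itself held 3 peaks in each library, the highest at 81, 108 and 54 fragments. With the deleted part unknown, these do not check the genotype.

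The chromatin at the annotated starts of these genes ranged from wide open to uncalled, and the sequences before 6 of those starts show the range. Each is the 250 bases before the first transcribed base, from the RefSeq table for GRCm38.p6, whose main chromosomes carry mm10 coordinates; 8 of the 9 genes had entries, with 12 starts in all. They are written 5′ to 3′ on the strand of the gene, and capitals mark the E-box CANNTG, the letters bound by basic helix-loop-helix factors such as Olig2. Macrod2 is shown as the strongest of the starts in both day 1 libraries and Cadm2 as one that is open in all libraries. Dmd and Rbfox1 are shown because their starts differ. Peaks at a start were counted over the 300 bp of its RefSeq entry, which runs past the first transcribed base.
Macrod2, chr2:140395180-140395429, plus strand: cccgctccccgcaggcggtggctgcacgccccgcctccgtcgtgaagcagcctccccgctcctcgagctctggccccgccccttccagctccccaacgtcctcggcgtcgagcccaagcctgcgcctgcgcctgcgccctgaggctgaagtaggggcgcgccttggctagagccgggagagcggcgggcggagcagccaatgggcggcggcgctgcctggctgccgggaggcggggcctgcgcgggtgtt
Cadm2, chr16:67620909-67621158, minus strand: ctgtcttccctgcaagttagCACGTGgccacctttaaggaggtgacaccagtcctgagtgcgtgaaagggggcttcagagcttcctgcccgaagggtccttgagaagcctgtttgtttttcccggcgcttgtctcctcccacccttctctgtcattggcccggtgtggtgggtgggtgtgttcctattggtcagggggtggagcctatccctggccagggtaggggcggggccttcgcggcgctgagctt
Dmd, upstream start, chrX:82948620-82948869, plus strand: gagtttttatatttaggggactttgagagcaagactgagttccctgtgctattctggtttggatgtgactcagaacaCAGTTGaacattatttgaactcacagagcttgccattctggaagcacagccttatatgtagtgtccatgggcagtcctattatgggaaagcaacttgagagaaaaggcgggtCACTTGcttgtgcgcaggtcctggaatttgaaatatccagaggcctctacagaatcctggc
Dmd, downstream start, chrX:85048045-85048294, plus strand: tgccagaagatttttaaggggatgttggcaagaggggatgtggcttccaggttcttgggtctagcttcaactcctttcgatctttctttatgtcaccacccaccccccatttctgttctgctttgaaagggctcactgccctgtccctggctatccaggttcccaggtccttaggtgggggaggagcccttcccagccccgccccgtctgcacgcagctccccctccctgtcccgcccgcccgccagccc
Rbfox1, upstream start, chr16:5884543-5884792, plus strand: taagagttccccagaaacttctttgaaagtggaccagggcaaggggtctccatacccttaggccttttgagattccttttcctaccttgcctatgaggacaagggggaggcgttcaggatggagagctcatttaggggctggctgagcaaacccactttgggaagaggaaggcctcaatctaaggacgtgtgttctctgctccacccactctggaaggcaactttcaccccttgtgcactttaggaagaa
Rbfox1, downstream start, chr16:7069585-7069834, plus strand: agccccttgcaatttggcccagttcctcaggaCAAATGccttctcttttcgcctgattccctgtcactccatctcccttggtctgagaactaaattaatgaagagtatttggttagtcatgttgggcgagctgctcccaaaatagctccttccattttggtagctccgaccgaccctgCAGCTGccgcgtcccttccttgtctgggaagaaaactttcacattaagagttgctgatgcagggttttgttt

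The Macrod2 sequence has 76.4% G and C, 30 CpG and no E-box, against a median of 52.4% and 6 CpG over 32851 such windows in the table. Over it lay peaks of 101, 170 and 83 fragments in progenitor, control day 1 and Seh1cKO cells, or 4.32, 9.31 and 7.65 FPM. The Cadm2 sequence, with 60.8% G and C, 10 CpG and 1 E-box, lay under peaks of 92, 95 and 59 fragments. These CpG-rich starts were thus among the highest sites of their loci in all 3 libraries.

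The upstream Dmd start has 45.2% G and C and 2 CpG, and no library had a peak over its window. The downstream Dmd start, with 60% G and C and 7 CpG, had 37, 21 and 11 fragments. Of these starts, both inside the gene body, only the downstream one was called; its height was 1.58, 1.15 and 1.01 FPM. Rbfox1 had only weak progenitor peaks at its starts, of 14 fragments at the upstream and 11 at the downstream one, and neither day 1 library had a call there. Both counts are within a few fragments of the lowest pileup called, so they show a call near the limit of that library.

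The upstream Lsamp start had 57, 75 and 33 fragments and the downstream one 114, 99 and 29, while Gpc5 had 69, 66 and 45. Pcdh15 had low peaks of 24, 32 and 12 fragments at the start in the table, which lies inside its gene body, and Tshz2 35 and 27 in the control libraries. A Seh1cKO peak of 20 fragments at Tshz2 began beyond the 300 bp counted. The progenitor peak of Tshz2 also began past the 250 bases before the start, so the libraries are not set apart by this. An E-box occurs in 66.2% of all windows of this length, so its presence before the Cadm2 start, the upstream Dmd start and the downstream Rbfox1 start describes the letters only. The form CAGCTG, which CANNTG also covers, stands once in the downstream Rbfox1 sequence and in 13% of all windows. No sequence of the distal peaks was read, because no genome was used here.

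Peak density in the 9 loci was close to that of other long genes in the control libraries and lower in the Seh1cKO library. Their loci together held 522 progenitor, 599 control day 1 and 149 Seh1cKO peaks, or 3.49, 4.01 and 0.996 peaks per 100 kb. The other 219 long genes together held 3.79, 4.27 and 1.43 per 100 kb. Whether the number of peaks in a gene follows its length was not tested, and the density varied widely among the 9 genes. In progenitors the density ran from 1.95 per 100 kb in Dmd to 7.39 in Tshz2. At day 1 in control cells it ran from 2.7 in Dmd to 6.8 in Cadm2.

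**Figure D1:**
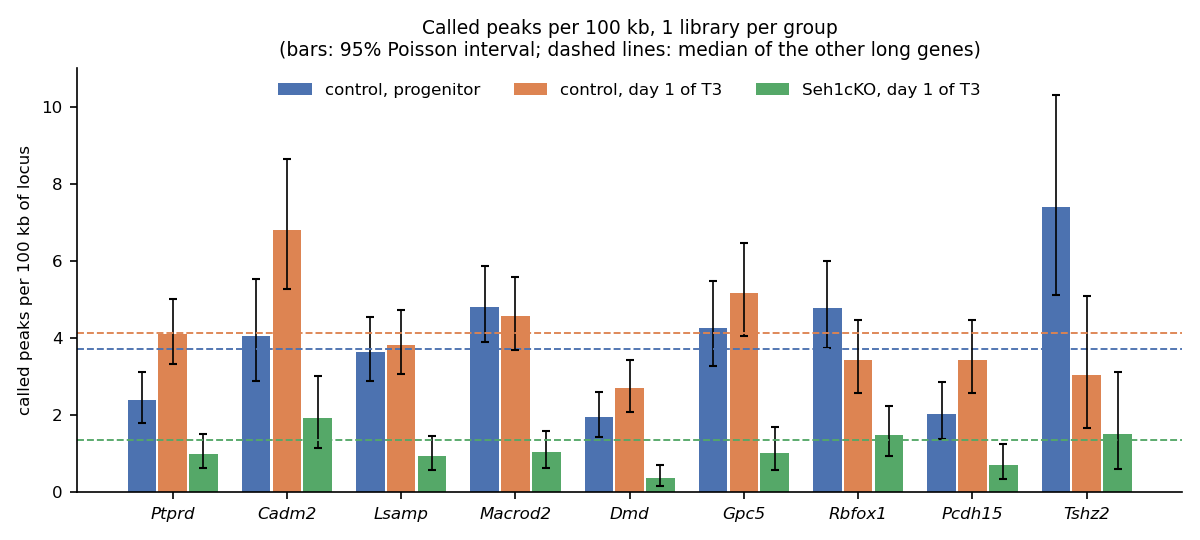
Called peaks per 100 kb of locus (vertical axis) for each gene in the progenitor (blue), control day 1 (orange) and Seh1cKO day 1 (green) libraries, 1 library per group; error bars are exact 95% Poisson intervals of the count and dashed lines the medians of the 219 other long genes (3.72, 4.12 and 1.36). The Seh1cKO bar is the lowest in every gene, Tshz2 is the highest in progenitors at 7.39, and Cadm2 the highest at day 1 in control cells at 6.8.

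Among the surface proteins, Ptprd had 55 progenitor, 94 control day 1 and 23 Seh1cKO peaks, or 2.4, 4.1 and 1 per 100 kb. Cadm2 had 40, 67 and 19 peaks, and Pcdh15 had 32, 54 and 11. These genes had the largest rises in number between the control libraries of all 21887 genes, at 1.71 times for Ptprd (95% interval of the ratio from counting error alone, 1.21 to 2.43), 1.68 times for Cadm2 (1.12 to 2.54) and 1.69 times for Pcdh15 (1.07 to 2.7), and differences of this kind are what the genes were chosen on. Lsamp had 81, 85 and 21 peaks and Gpc5 62, 75 and 15, ratios between the control libraries of 1.05 and 1.21 whose differences are small beside the counts. Both differed most between the day 1 libraries, where the difference in peak number ranked 3 and 4 of all genes.

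Dmd had 47, 65 and 9 peaks, 1.38 times as many at day 1 as in progenitors (0.936 to 2.06), and Macrod2 had 97, 92 and 21, with a ratio of 0.948. Rbfox1 had 74, 53 and 23 peaks, a ratio of 0.716 (0.494 to 1.03), and Tshz2 34, 14 and 7, a ratio of 0.412 (0.204 to 0.788). Rbfox1 and Tshz2 had more calls in progenitors, and the interval of the ratio left out 1 in Tshz2 and not in Rbfox1. Of the 9 genes, 3 had at least 1.5 times as many peaks at day 1 as in progenitors and 1, Tshz2, at least 1.5 times as many in progenitors. Among all 2361 genes with 10 or more locus peaks in either control library these shares were 20.8% and 6.44%, and among the 226 long ones 15% and 1.33%. Nothing is read from the counts against these shares, because the genes were chosen on them. Among genes not chosen, Dnm3 (28 and 49 peaks) and Sema6d (27 and 48) had the largest differences in number, larger than those of Tshz2, Dmd, Gpc5, Macrod2 and Lsamp, so the choice does not follow this difference alone.

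**Figure D2:**
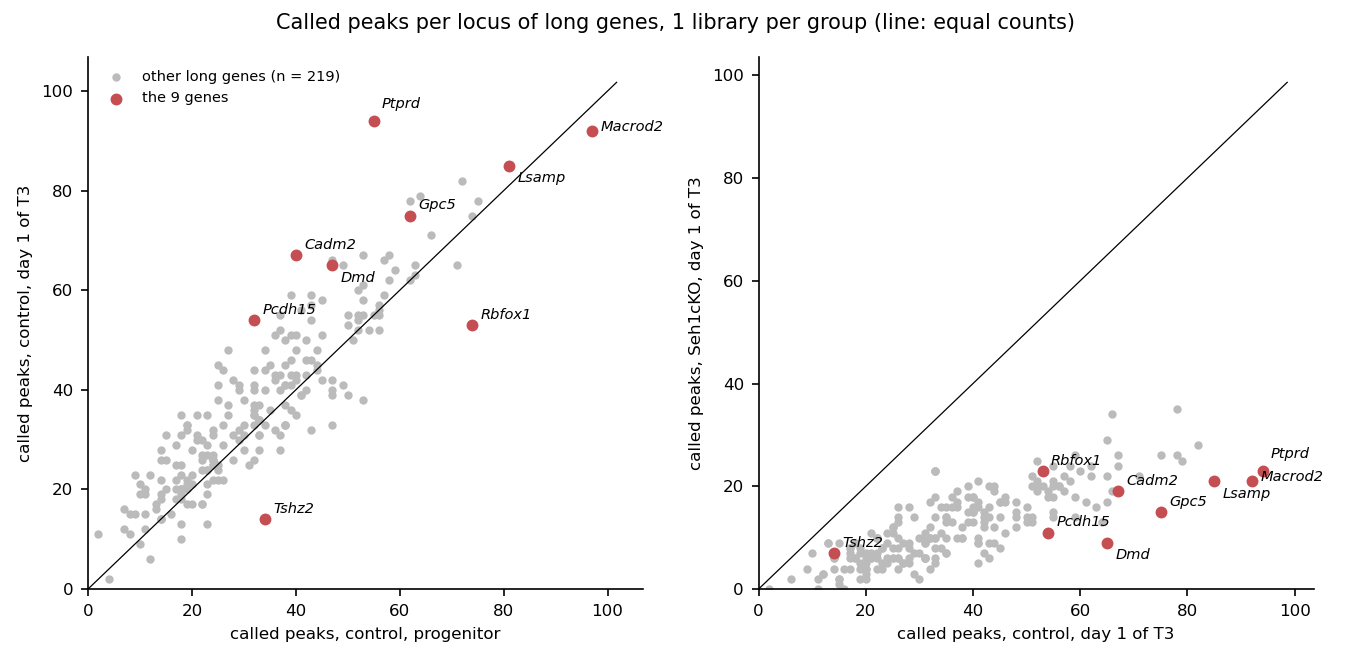
Called peaks per locus in progenitors against control day 1 (left) and in control day 1 against Seh1cKO day 1 (right), 1 point per gene: red for the 9 genes, grey for the other 219 long genes, with a line of equal counts. Ptprd (55 and 94) lies farthest above the line and Rbfox1 (74 and 53) and Tshz2 (34 and 14) below it on the left; every gene drawn lies on or below the line on the right.

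Most of the calls behind these counts were weak and occurred in 1 library. A weak single-library call is here a peak with a −log10 q under 5 that no peak of another library touches by even 1 bp. They made up 59.2% (95% exact binomial interval 54.8 to 63.4) of the progenitor peaks in the 9 loci, 55.4% (51.3 to 59.5) of the control day 1 peaks and 15.4% (10 to 22.3) of the Seh1cKO peaks. Over the full lists the shares were 48%, 45.1% and 11.7%, and in the other long genes 52.7%, 49% and 15.3%. Of these weak calls in the 9 loci, 64.4%, 74.7% and 82.6% had a pileup within 2 fragments of the lowest that was called in their library, against 62.5%, 68.8% and 76.8% in the other long genes and 60.1%, 66.8% and 71.5% over the full lists.

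In 7 of the 9 genes the share was higher in the control library with more peaks, and Lsamp and Gpc5 were the exceptions. Peaks in excess in 1 library are often absent from the other, and the genes were chosen on peak number. Nothing is therefore read from this count, which was not made for other genes. In Ptprd it was 50.9% in progenitors and 62.8% at day 1 in control cells, where the gene had more peaks. In Rbfox1 it was 68.9% and 39.6%, and in Tshz2 61.8% and 35.7%, with more peaks in progenitors. Gpc5 had the highest shares of the 9 in both control libraries, at 74.2% and 68%, and Lsamp had 46.9% and 41.2%. Cadm2 had 45% and 52.2%, Pcdh15 62.5% and 66.7%, Macrod2 60.8% and 53.3%, and Dmd 59.6% and 63.1%. In Seh1cKO cells the share ran from 0 of 9 peaks in Dmd to 26.7% of 15 peaks in Gpc5.

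**Figure D3:**
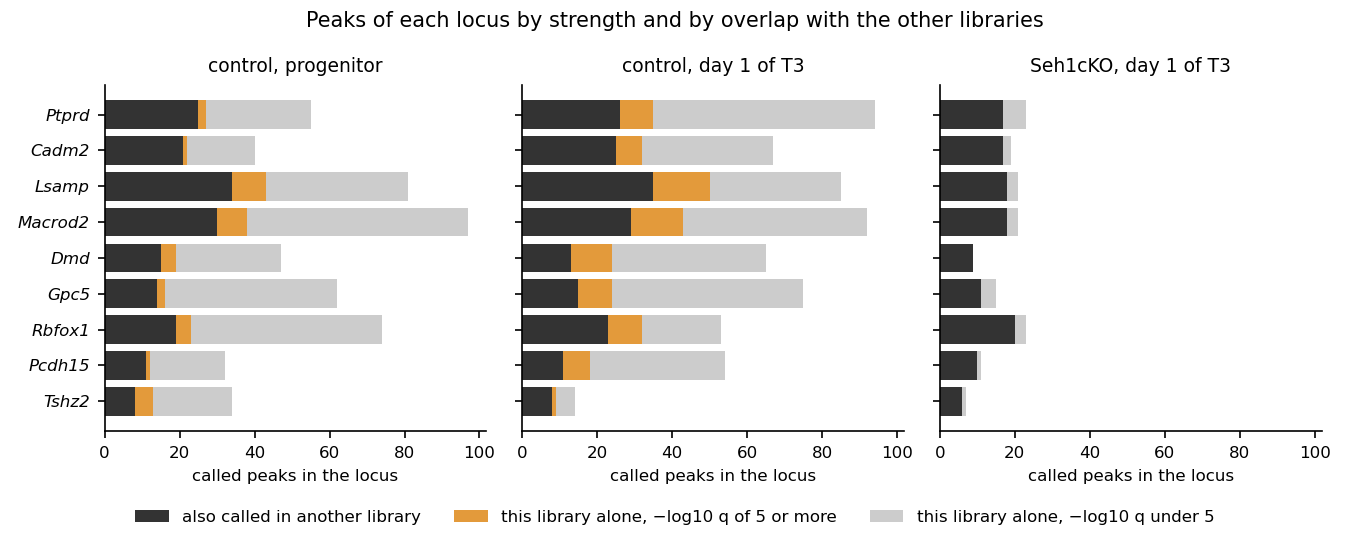
Number of called peaks per locus (horizontal axis) in each library, split into peaks also called in another library (black), peaks of 1 library with a −log10 q of 5 or more (orange) and weak single-library calls (grey). The grey part is the longest in most control bars (59 of 94 Ptprd peaks at day 1, 51 of 74 Rbfox1 peaks in progenitors), and the black part makes up most of each Seh1cKO bar.

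Strong peaks changed the order of the control libraries in Macrod2 and Rbfox1. With a −log10 q of at least 10, the 9 loci had 93 progenitor, 118 control day 1 and 36 Seh1cKO peaks. The other long genes had 1365, 1866 and 586 and the full lists 26832, 33050 and 15607. More strong peaks at day 1 than in progenitors was thus general between the control libraries. Rbfox1 had 10, 13 and 3 strong peaks and Macrod2 14, 20 and 5. Both genes followed this general order, against the order of all their peaks, and on small counts. With the limit at 5 in place of 10 the same turn was seen, with 20 and 27 peaks in Rbfox1 and 26 and 37 in Macrod2. Tshz2 kept its order, with 12 and 5 peaks at that cut and 5 and 4 strong ones. The strong peaks of the other genes numbered 9, 11 and 6 in Ptprd, 13, 20 and 4 in Cadm2, 21, 25 and 7 in Lsamp, 5, 6 and 2 in Pcdh15, 6, 9 and 4 in Gpc5 and 10, 10 and 3 in Dmd.

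When each list was cut to its 46113 strongest peaks, the length of the Seh1cKO list, the loci held 171 progenitor, 171 control day 1 and 149 Seh1cKO peaks. The lowest −log10 q kept was then 4.66, 6.05 and 1.3 in these libraries, so the lists are equal in length and not in strength. Ptprd then had 18, 17 and 23, so the excess at day 1 was gone and the Seh1cKO count was the highest, a turn whose cause was not tested. At a common −log10 q of at least 5, Ptprd had 17, 26 and 9. Rbfox1 had 20, 20 and 23, Cadm2 20, 23 and 19, Pcdh15 9, 13 and 11, and Gpc5 14, 15 and 15. Tshz2 alone among the 9 kept a count in progenitors more than 1.5 times that of control cells at day 1, with 13, 4 and 7. The other long genes had 2608, 2720 and 2610 in lists of this length, a ratio of Seh1cKO to control day 1 of 0.96 against 0.871 in the 9 loci. Lsamp (34, 37 and 21), Dmd (17, 17 and 9), Macrod2 (26, 25 and 21) and Cadm2 stayed lowest in Seh1cKO cells. Their Seh1cKO counts were 0.568, 0.529, 0.84 and 0.826 of the control day 1 counts.

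Sites were formed by joining peaks of the 3 libraries that overlapped, and the 9 loci held 973 of them. Of these 92 (9.46%) were called in all 3 libraries, 69 in both control libraries, 17 in both day 1 libraries, 13 in progenitors and Seh1cKO cells, 345 in the progenitor library alone, 414 in the control day 1 library alone and 23 in the Seh1cKO library alone. The share in all 3 libraries was 13.7% in the other long genes and 17.9% in the whole series. The 92 sites carried 40.8% of the summed FPM of progenitors, 40.4% of that of control cells at day 1 and 79% of that of Seh1cKO cells. These shares were 48.9%, 46.4% and 81.5% in the other long genes and 66.2%, 63.9% and 89.5% over the series. The genes were chosen on differences in called peaks, so lower shares of common sites in the 9 loci follow in part from the choice. Nothing is read from them. Ptprd and Dmd had stretches of 866 and 942 kb without one.

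At the 92 common sites the height in FPM in control cells at day 1 was higher than in progenitors at 75, with a median ratio of 1.32. The share of sites higher at day 1 was 81.5%, against 74.5% in the other long genes and 78.9% over all such sites. The median ratio was 1.3 in the other long genes and 1.35 over all such sites, so this height difference between the libraries was a general one. Cadm2 had the highest median of the 9, 1.75 over 14 sites, 12 of them higher at day 1, and Ptprd 1.55 over 11 sites, 10 of them higher. Lsamp was higher at 15 of 16 sites, Gpc5 at 7 of 7, Pcdh15 at 6 of 7, Macrod2 at 12 of 14, Rbfox1 at 9 of 12 and Dmd at 4 of 7. Tshz2 went the other way, with 0 of 4 sites higher at day 1 and a median of 0.88. Its ratios ran from 0.641, at 16 and 8 fragments, to 0.989, which is nearly equal. The 8 fragments are the lowest pileup called in control cells at day 1. A count of 21 of the 92 sites was at least 2 times as high at day 1, 7 of them in Cadm2, while 2 were at least 2 times as high in progenitors, 1 in Ptprd and 1 in Lsamp. Counts at this limit were not made in the other long genes or over the series, so they do not set these loci apart.

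**Figure D4:**
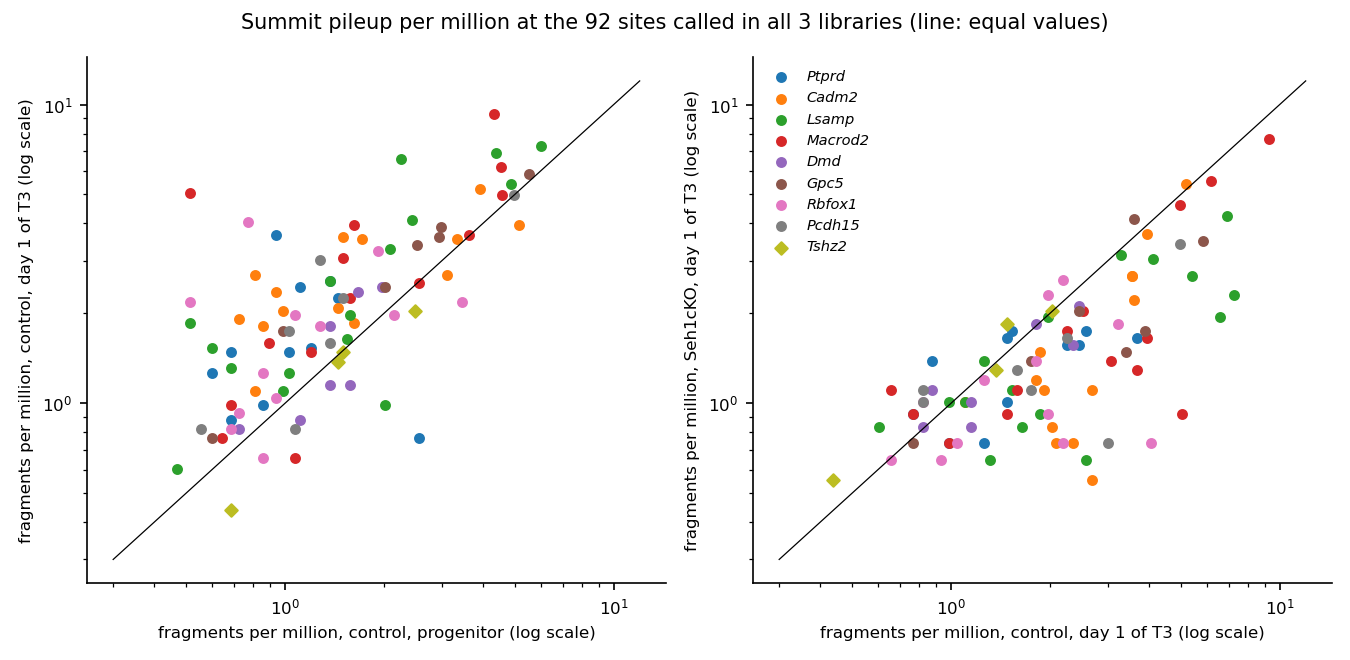
Summit height in FPM at the 92 sites called in all 3 libraries, progenitors against control day 1 (left) and control day 1 against Seh1cKO day 1 (right), both axes on a log scale, 1 point per site and 1 colour per gene, with a line of equal values. On the left 75 points lie above the line and the 4 Tshz2 diamonds below it; on the right 22 points lie above the line.

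The common site with the largest ratio of the 9 loci was at chr2:142392100-142392798, at the far end of the Macrod2 gene body, just inside its last base. It had 12 fragments in progenitors, 92 at day 1 in control and 10 in Seh1cKO cells, or 0.513, 5.04 and 0.922 FPM. Rbfox1 had a site of this kind at chr16:6419613-6420225, inside the gene, with 18, 74 and 8 fragments, or 0.769, 4.05 and 0.738 FPM. In both, the control day 1 library stood far above the other libraries, which were near each other in Rbfox1, while in Macrod2 Seh1cKO cells were above progenitors. Ptprd had 22, 67 and 18 fragments at chr4:77819145-77819766 and Cadm2 19, 49 and 6 at chr16:67210620-67211245. Lsamp had 12, 34 and 10 at chr16:41827422-41828005 and Pcdh15 30, 55 and 8 at chr10:74366592-74367061. These sites were singled out for their height at day 1 in control cells, so lower values in the other libraries follow in part from the choice.

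Ptprd also had the common site that was most in favour of progenitors, at chr4:76324635-76325442, with 60, 14 and 10 fragments, or 2.56, 0.767 and 0.922 FPM. Its strongest progenitor peak and its strongest control day 1 peak were thus at different places, 384 and 1878 kb from the lower end of the gene. Lsamp had 47, 18 and 11 fragments at chr16:40290167-40290826. At the strongest Rbfox1 progenitor peak, chr16:5911918-5912413, there were 81, 40 and 28 fragments, and at the strongest Tshz2 one, chr2:169790591-169791200, 58, 37 and 22, in each library the highest peak of the Tshz2 locus. Height at the Tshz2 site was 2.48, 2.03 and 2.03 FPM.

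The strongest sites of the other loci were called in all 3 libraries. Gpc5 had 129, 107 and 38 fragments at chr14:115804471-115805321 and Pcdh15 116, 91 and 37 at chr10:73826212-73827055. Lsamp had 141, 133 and 25 at chr16:40233835-40234469, or 6.02, 7.28 and 2.31 FPM, so its Seh1cKO height was well below that of both control libraries. Dmd had 46, 45 and 23 at chrX:83746480-83746926. Not every strong site in these loci need belong to the long gene: Flrt3, which lies inside Macrod2 at chr2:140658198-140671476 and encodes a membrane protein of the leucine-rich repeat family, had 107, 91 and 50 fragments at its own start. The annotation table gives no exons, so the place of the sites within introns, exons or UTRs is not given.

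**Figure D5:**
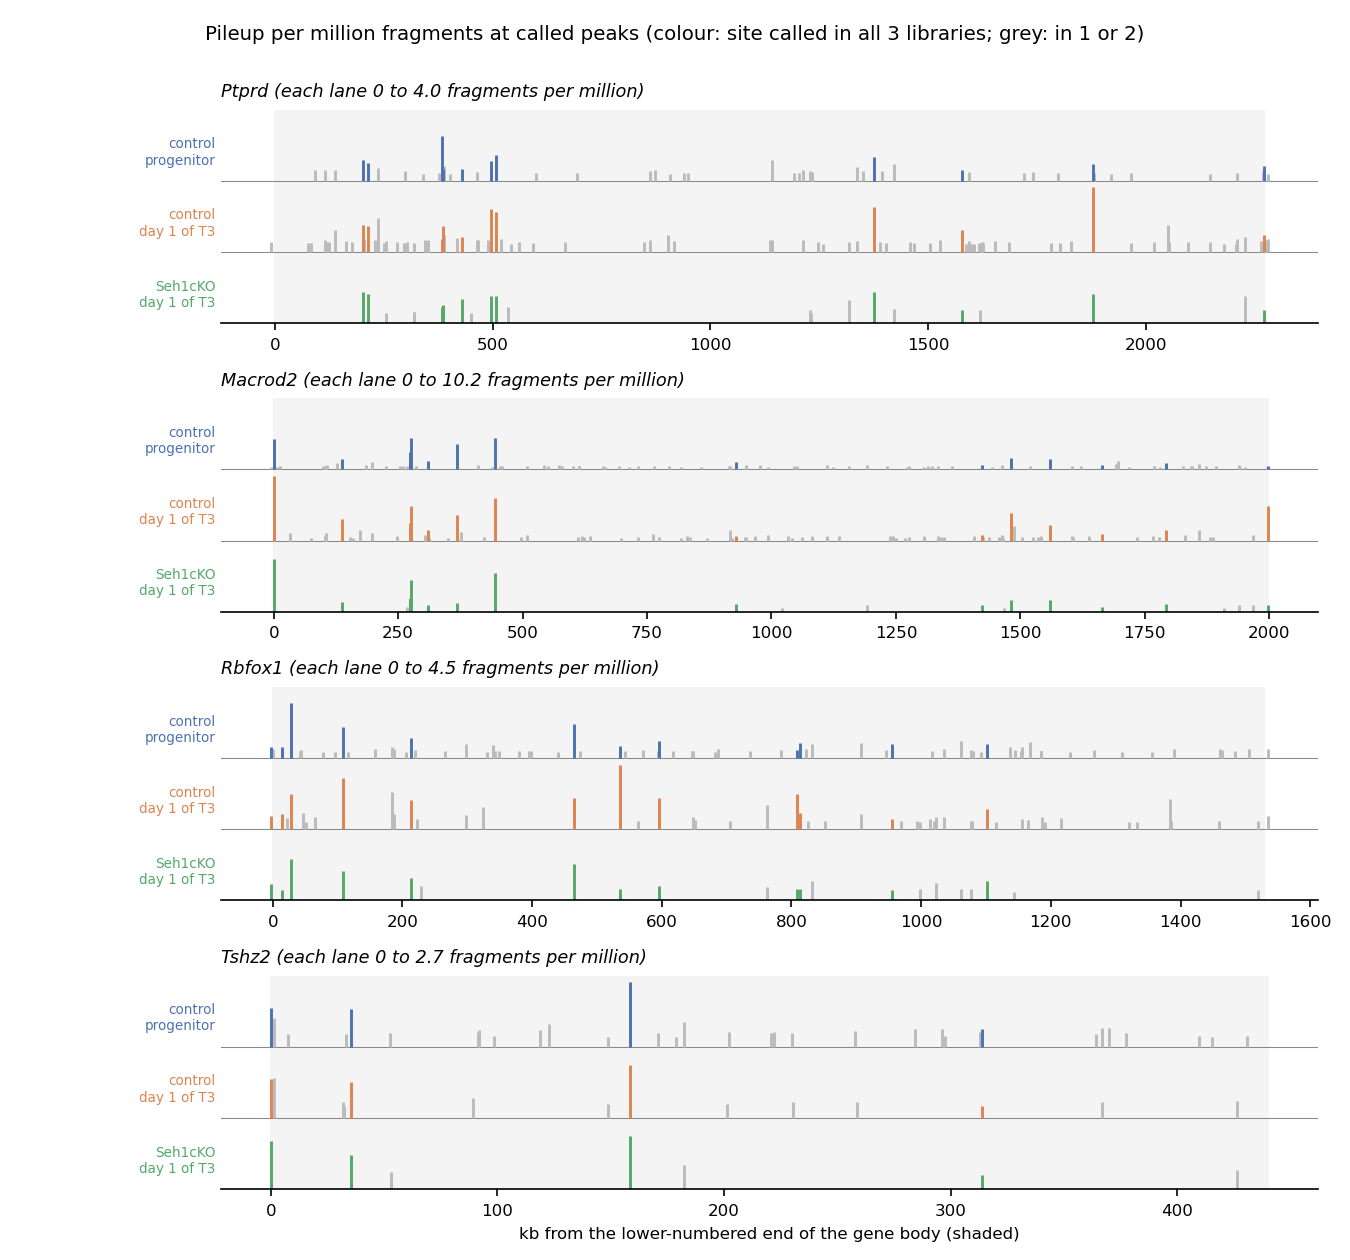
Height in FPM (length of each line, scale in each panel title) at called peaks along Ptprd, Macrod2, Rbfox1 and Tshz2, by kb from the lower-numbered end of the shaded gene body, with 1 lane per library. Coloured lines are sites called in all 3 libraries and grey lines sites called in 1 or 2; tall lines recur in all lanes, while short grey lines fill the control lanes of Ptprd at day 1 (94 peaks) and of Rbfox1 and Tshz2 in progenitors (74 and 34 peaks).

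Between the control libraries, strong sites of 1 library without a call in the other were the smaller part. Of the 118 strong control day 1 sites, 21 (17.8%) had no progenitor peak, against 17.4% in the other long genes and 11.6% over the series. Only 2 of the 21 had a Seh1cKO peak, or 9.52%, against 16.5% and 23.2%. In Rbfox1 such a site, at chr16:7268256-7268939, had 35 fragments and a −log10 q of 26.7 in control cells at day 1 and no call elsewhere, and in Ptprd one at chr4:77990248-77990538 had 28 and 19.5. Macrod2 had one at chr2:141881834-141882225 with 38 fragments and a −log10 q of 19.2.

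Of the 93 strong progenitor sites, 11 (11.8%) had no control day 1 peak, against 4.73% in the other long genes and 3.48% over the series. Dmd had the highest of those found in progenitors alone, at chrX:84519799-84520146, with 32 fragments and a −log10 q of 21.5. Macrod2 had one at chr2:142090771-142091155 with 29 fragments and 18.3. In 6 of the 11 the Seh1cKO library had a peak, against 32 of 64 in the other long genes and 379 of 926 over the series. Among the 6 was the Tshz2 site at chr2:169814834-169815271, with 22 fragments in progenitors and 10 in Seh1cKO cells. The shares of strong sites here and in the paragraph above have no test, since each group has 1 library. The genes were also chosen on differences in called peaks, so nothing is read from these shares against those of other genes.

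Every gene had fewer peaks in Seh1cKO cells than in either control library, by at least 1.5 times in all 9. That held for 94.2% of the 2096 genes with 10 or more locus peaks in either day 1 library, and for 91.2% of the 1754 genes against progenitors, so a shortfall of this size was general. The ratio of Seh1cKO to control day 1 peaks had a median of 0.245 over the 9 genes, 0.333 over the other long genes and 0.382 over all genes counted, and ran from 0.138 in Dmd to 0.5 in Tshz2. The genes were chosen on differences in called peaks, so nothing is read from their lower median. The Seh1cKO list is shorter and its library shallower than both control libraries, and the part of depth and list length in the shortfall cannot be told apart from genotype in these libraries. Among genes not chosen, the largest differences in number on this contrast were those of Nrxn3 (82 and 28 peaks) and Pde4d (79 and 25), larger than those of Cadm2, Pcdh15, Rbfox1 and Tshz2.

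Where the Seh1cKO library did have a call, 75.8% of its 149 peaks touched a control day 1 peak and 71.1% a progenitor peak, against 76.9% and 73.6% in the other long genes and 81.4% and 78.7% in the full list. In the other direction 18.4% of the control day 1 peaks had a Seh1cKO call, against 25% in the other long genes and 31.3% in the full list. A lower share in this direction follows in part from the choice of the genes. Of the 97 strong control day 1 sites that progenitors shared, 72 (74.2%) had a Seh1cKO call and 25 did not, against 82% in the other long genes with one. Among the 25 were a Lsamp site at chr16:40070513-40071044 with 59 fragments, an Rbfox1 site at chr16:6068315-6068557 with 43, a Pcdh15 site at chr10:73144120-73144513 with 36 and a Ptprd site at chr4:76178568-76179003 with 35. All 36 strong Seh1cKO peaks had a control day 1 peak, as did 99.5% in the other long genes and 99.5% in the full list.

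At the 92 common sites, height in FPM in Seh1cKO cells was lower than in control cells at day 1 at 70, with a median ratio of 0.748, against 0.811 in the other long genes and 0.899 over all common sites. Against progenitors the median was 1.03, with 1.08 in the other long genes and 1.2 over all common sites. Tshz2 was the exception again, at 1.12, with 3 of its 4 sites higher in Seh1cKO cells, and Cadm2 had the lowest median, 0.638, with 1 of 14 higher. The start of Cadm2 was the one site of 14 that was higher, at 5.44 FPM against 5.2. Dmd stood at 0.882, Gpc5 at 0.789, Macrod2 at 0.764, Pcdh15 at 0.739, Rbfox1 at 0.737, Ptprd at 0.698 and Lsamp at 0.668.

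The sum of FPM over all peaks of a locus joins number and height. Ptprd had 36.6 in progenitors, 72 at day 1 in control and 25.1 in Seh1cKO cells, Cadm2 41.8, 71.6 and 30.2, and Pcdh15 24.4, 44.1 and 13.7. Lsamp had 72.3, 103 and 31.5, Macrod2 73.3, 101 and 36.9, Gpc5 45.5, 64.9 and 20.6 and Dmd 33.5, 48.4 and 10.9. In Rbfox1 the sums of 47.8 and 52.4 in the control libraries ran against its peak numbers, and Seh1cKO cells had 23.8. Summed fold enrichment over the local background, in place of pileup, turned that order, with a ratio of 0.945. Tshz2 was lower at day 1 in both measures, with sums of 23.2, 12.2 and 8.02.

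Such sums follow how much was called. The peaks covered 13543, 21756 and 6616 bp of the Ptprd locus, 16515, 14958 and 5558 bp of the Rbfox1 locus and 7968, 3795 and 1869 bp of the Tshz2 locus. Mean height per peak was higher in Seh1cKO than in control day 1 cells in all 9 genes, from 1.05 times in Rbfox1 to 1.62 times in Dmd, the reverse of the sums, and in Tshz2 it was 1.28 times as high at day 1 as in progenitors. A mean over called peaks depends on the lowest height called, which was 0.553 FPM in Seh1cKO and 0.438 FPM in control day 1 cells. The part of this limit and of the shorter list in the higher Seh1cKO means was not tested.

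Dmd is the only X-linked gene of the 9 and had the lowest density in each library. The 10 other long genes on the X chromosome had median densities of 1.38, 2.07 and 0.357 peaks per 100 kb, against 3.82, 4.32 and 1.39 in the 209 on autosomes. With 1.95, 2.7 and 0.373 per 100 kb, Dmd was closer to the other X-linked long genes than to the autosomal ones. The median ratio of Seh1cKO to control day 1 peaks was 0.191 in the other X-linked long genes and 0.333 in the autosomal ones, beside 0.138 in Dmd. For control day 1 to progenitor peaks these medians were 1.37 and 1.09, beside 1.38 in Dmd, so neither ratio is particular to Dmd. The sex of the pups, on which the number of X chromosomes depends, is not given in the labels, and its part in these densities and ratios was not tested.

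Relatives of the 9 genes, 36 genes of the same families or complexes, were counted in the same way. Of 24 with 10 or more peaks, 5 had at least 1.5 times as many at day 1 and none at least 1.5 times as many in progenitors. The first count is near the 20.8% of all genes counted, so it does not set the relatives apart, and their median ratio was 1.19 against 1.12. The 5 were Sgcd, a sarcoglycan of the dystrophin complex (23 and 35 peaks), the glypican Gpc3 (8 and 14), the splicing regulator Rbfox2 (8 and 15) and the protocadherins Pcdh10 (8 and 12) and Pcdh11x (8 and 15). Rbfox3 had 26 and 27 peaks, beside 74 and 53 in Rbfox1. The IgLON genes Ntm (57 and 66), Opcml (58 and 67) and Negr1 (47 and 40) were, like Lsamp, within 1.5 times, as was Tshz1 (12 and 11), and these relatives did not repeat the low day 1 count of Tshz2.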

How the data were processed

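The authors' files are 3 MACS2 peak tables, 1 per ATAC-seq library. Bowtie2, SAMtools, MACS2 and the build mm10 are named in the submitters' processing notes. Per the file headers, MACS 2.1.2_dev called peaks in each library separately on paired-end fragments, keeping all duplicates, without a control library, with peaks of at least 100 bp joined across gaps of up to 50 bp, a local background of 10000 bp and q at most 0.05. Kept duplicates can raise a pileup, and the sources used here do not give their share. Each deposited row gives the pileup signal at the summit in fragments, −log10 of the p-value and of the q-value, and fold enrichment as a ratio to background, all the authors' values. The names of the −log10 columns are damaged in the deposited tables; a Poisson p-value recomputed from pileup and fold came within 0.01 of the first of them in at least 99.91% of peaks.

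Genes came from RefSeq GRCm38.p6. The 9 genes, their relatives and the marker lists were chosen with earlier results of these data known. Peaks touching a locus were counted in Python 3.11.15 (pandas 2.3.3, scipy 1.17.1). FPM is pileup per 1000000 of the fragments that the header gives. Overlap of 1 bp counted as shared. Peaks named were the strongest of each library and locus, the strongest found in 1 library, and strong ones missing from another library; common sites with the largest and smallest ratio were chosen after seeing their values. With 1 library per group there is no test between conditions. Poisson and Clopper-Pearson intervals at 95% cover counting error only: without molecular identifiers, fragments need not be independent molecules. The counting code was tested on simulated data. Alternatives were the flank, the strength cut, lists of equal length, merging of close peaks, the overlap rule and the height measure.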

Additional observations from a re-analysis of the deposited data

How the results depend on the processing

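Widening the flank to 50000 bp, dropping it, or merging peaks within 500 bp moved no density or count ratio of the 9 loci together beyond counting error. A −log10 q of at least 5 gave 1.12, 1.52 and 0.475 peaks per 100 kb (progenitor, control day 1, Seh1cKO), one of at least 10 gave 0.622, 0.789 and 0.241, and lists of equal length 1.14 in both control libraries. The ratio of control day 1 to progenitor peaks, 1.15, became 1.36 at a −log10 q of at least 5 and 1.0 with equal lists. That of Seh1cKO to control day 1, 0.249, became 0.313 and 0.305 at the cuts of 5 and 10 and 0.871 with equal lists.

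Ratios of single genes that changed direction were, for control day 1 to progenitor peaks, Ptprd with equal lists (0.944), Macrod2 (1.42 and 1.43 at the cuts of 5 and 10) and Rbfox1 (1.35 and 1.3), and for Seh1cKO to control day 1 peaks with equal lists Ptprd (1.35), Rbfox1 (1.15) and Tshz2 (1.75). Equal lists drop weaker control peaks by construction; the cause was otherwise not tested.

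The share of control day 1 peaks found in progenitors, 27.7%, was 22.2% when 50% of the peak had to be covered, 35.1% with peaks widened by 250 bp, 48.0% at a −log10 q of at least 5 and 61.4% with equal lists. The reverse share, 31.4%, was 26.1%, 38.3%, 64.7% and 61.4%. Control day 1 peaks found in Seh1cKO cells, 18.4%, were 12.2% at 50% cover, 28.6% at the cut of 5 and 53.2% with equal lists, and Seh1cKO peaks found in control cells at day 1, 75.8%, were 65.8%, 91.5% and 63.8%. Weak single-library calls were 38.7% and 41.7% of progenitor and control day 1 peaks when weak meant a −log10 q under 3, 65.1% and 65.9% under 10, and 52.9% and 50.4% with widened peaks.

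The ratio of summed FPM, control day 1 to progenitors, 1.43, was 1.62 over peaks past the cut of 5 and 1.25 as a mean per peak; Rbfox1 turned to 0.945 with summed fold enrichment and Tshz2 to 1.28 as a mean per peak. That of Seh1cKO to control day 1, 0.353, was 0.28 with summed fold enrichment and turned to 1.42 as a mean per peak, with 1.42 in Ptprd, 1.48 in Cadm2, 1.24 in Lsamp, 1.61 in Macrod2, 1.62 in Dmd, 1.58 in Gpc5, 1.05 in Rbfox1, 1.53 in Pcdh15 and 1.31 in Tshz2. Depth limits all counts: no site under 9, 8 and 6 fragments was called in the progenitor, control day 1 and Seh1cKO lists. No paired analysis was possible because each group has 1 library.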
